A study of Mus musculus with 24 samples.

Results

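The 10 genes below mark monocytes and macrophages recruited into tissue (Ly6c2, Ccr2, Cx3cr1, Itgam, Csf1r, Adgre1, Trem2, Apoe, Cd14 and Fcgr1), and their signal was followed in mouse lungs after repeated dosing with carbon nanomaterials. They were taken from a list of 10 symbols, and 9 of them had a named spot on the array, out of 20738 genes with a name. No spot was named Ly6c2, so that gene was not analysed here, and Adgre1 was listed under its older symbol Emr1. Each gene was read from its spot with the highest mean over all 24 samples. All 9 genes lay above the 40th percentile of the array signal in 24 of 24 samples and passed the filter on low signals, as did 16519 genes in all.

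Each of the 24 samples held lung RNA pooled from 2 mice, all female, of strain C57BL/6 and 7 to 8 weeks old. The 6 materials, all carbon nanomaterials, are named in the labels as rCNT, tCNT and SES (3 samples each) and BayTubes, Graphite and fullerene (4 samples each), and the labels do not explain these names. The daily dose was 10 µg in 50 µl of phosphate-buffered saline, by oropharyngeal aspiration, in which the animal inhales a droplet placed in its throat. Dosing went on for 4 days, with tissue collected 24 h later. The Ctrl group (3 samples) received saline alone. Samples are called by group and title number (rCNT 4, for example). Whole lung RNA was measured, so fewer or more cells of a type and less or more RNA per cell cannot be told apart in any value below.

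Monocytes leave the bone marrow and enter inflamed tissue through the chemokine receptor Ccr2, which binds Ccl2 and related chemokines, while patrolling monocytes carry the fractalkine receptor Cx3cr1. Once in tissue they mature under the growth factor receptor Csf1r and take up Trem2, a lipid-sensing receptor, and Apoe, a lipid carrier, in many settings of tissue injury. Cd14 and Fcgr1 let these cells sense bacterial lipopolysaccharide and antibody-coated particles. Several of these genes are also used by macrophages that live in the healthy lung and, in the case of Itgam, by neutrophils, so none marks a recruited cell on its own.

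Promoter sequences of RefSeq (build GRCm38.p6) are shown for 3 of the genes that passed the test after rCNT, because a short word bound by PU.1, the transcription factor that myeloid cells depend on, lies close to each start. The word searched was GAGGAA on both strands, so that its reverse reading is TTCCTC, in the 250 bases before each start. It was present in 23.3% of 32851 promoters, and in 7 of the 10 promoters of the 7 listed genes with an entry, some of which have several (in Ly6c2, Itgam, Trem2, Apoe and Fcgr1, but not in Ccr2 or Cx3cr1). The 2 Ly6c2 promoters overlap and share 1 match, which is counted in both. Csf1r, Adgre1 and Cd14 had no entry and were not searched. The longer word AGAGGAAG, which contains the first, was also searched, was present in 3.67% of promoters and matched in 2 of the 10 (Fcgr1 and 1 of Ly6c2). Capitals mark the word in the 100 bases before the start of Trem2 (chr17:48346301-48346400, plus strand), Fcgr1 (chr3:96293970-96294069, minus strand) and Itgam (chr7:128062540-128062639, plus strand), printed 5′ to 3′.
Trem2: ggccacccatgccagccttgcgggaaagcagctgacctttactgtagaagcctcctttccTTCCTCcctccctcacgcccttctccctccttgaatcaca
Fcgr1: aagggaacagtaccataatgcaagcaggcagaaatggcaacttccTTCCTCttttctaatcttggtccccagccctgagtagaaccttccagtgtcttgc
Itgam: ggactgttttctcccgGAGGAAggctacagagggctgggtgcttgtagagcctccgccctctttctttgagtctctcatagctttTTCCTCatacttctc
A match describes the letters only.

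After rCNT, 5 of the 9 genes rose against Ctrl and 1, read from the brightest of its spots, fell. Trem2 rose 4.80-fold, Cd14 4.01-fold, Ccr2 3.39-fold, Fcgr1 2.18-fold and Adgre1 1.99-fold, while the brightest Itgam spot fell to 0.616 of Ctrl. Cx3cr1, Csf1r and Apoe did not pass. Among all genes tested 12.4% rose and 9.41% fell (21.8% in either direction), and the median change was 0.99 on the log2 scale for the listed genes and -0.02 for all genes. A gene counted as changed at an adjusted p under 0.05 (limma, Benjamini-Hochberg over all 16519 genes). The 6 comparisons with Ctrl share the same 3 Ctrl samples.

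**Figure D1:**
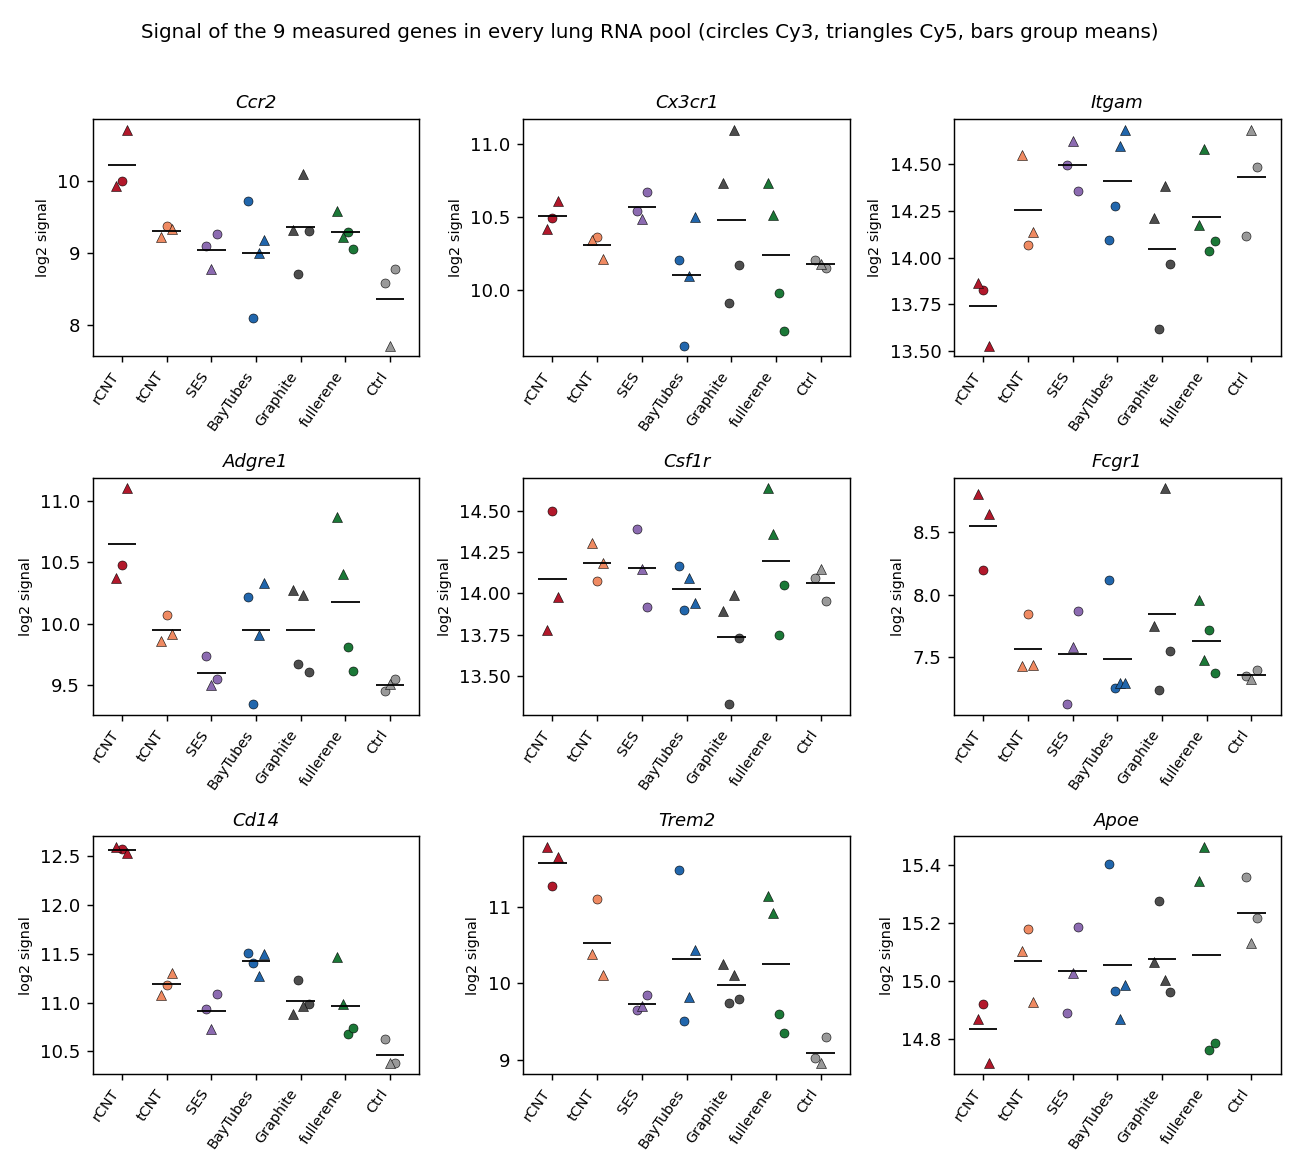
Log2 signal (vertical axes, 1 panel a gene) of the 9 measured genes in all 24 samples, by group along the horizontal axes. Circles are Cy3 samples, triangles Cy5 samples and bars group means, and in Cd14 and Trem2 all 21 exposed samples lie above all 3 Ctrl samples.

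Ccr2, the receptor through which classical monocytes follow Ccl2, was at 9.93, 10.00 and 10.72 on the log2 signal scale in the rCNT samples, against 8.58, 7.71 and 8.77 in the Ctrl samples. It was at 9.22, 9.37 and 9.32 after tCNT, at 9.10, 8.77 and 9.26 after SES, at 9.72, 8.09, 8.99 and 9.18 after BayTubes, at 9.32, 8.70, 10.09 and 9.31 after Graphite, and at 9.59, 9.22, 9.29 and 9.05 after fullerene. The rCNT samples lay above Ctrl without overlap, and 1 Graphite sample (Graphite 15) reached into the rCNT range. The change after rCNT was 1.76 ± 0.36 on the log2 scale (SE, n = 3 against 3, limma adjusted p = 0.00156). None of the other 5 materials passed for Ccr2, with log2 changes between 0.55 and 0.85. Ctrl 2 was the lowest sample of all, and the rCNT change kept its call when any 1 rCNT or Ctrl sample was left out (1.44 to 2.01).

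Cx3cr1, the receptor for the membrane-bound chemokine fractalkine, was nearly level across groups. Its rCNT samples were at 10.42, 10.49 and 10.61, against 10.21, 10.18 and 10.15 in Ctrl, which is a small shift without overlap. The log2 change of 0.24 ± 0.22 did not pass (limma adjusted p = 0.476). SES had the highest group mean (10.57 ± 0.10, SD, n = 3) and BayTubes the lowest (10.11 ± 0.37, n = 4), and every neighbouring pair in the order of groups overlapped. Cx3cr1 also had a dye effect, with Cy5 samples 0.33 log2 units above Cy3 samples (limma adjusted p = 0.0489), which the fit removes.

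Csf1r, the receptor for the growth factors Csf1 and Il34 that monocytes and macrophages need to survive, did not pass in any comparison. It was at 13.78, 14.50 and 13.98 after rCNT, against 14.09, 14.14 and 13.95 in Ctrl, so the groups overlapped fully. The log2 difference was -0.06 ± 0.19, with a 95% confidence interval of -0.45 to 0.33 (limma adjusted p = 0.858). Graphite had the lowest mean (13.74 ± 0.29, SD, n = 4) and fullerene the highest (14.20 ± 0.38, n = 4). The 2 dimmer Csf1r spots had log2 changes of -0.17 and -0.32 after rCNT, and neither passed.

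Itgam, the alpha chain of an integrin that serves as complement receptor and in adhesion, gave opposite answers on its spots. The brightest spot was at 13.86, 13.83 and 13.53 after rCNT, against 14.12, 14.69 and 14.49 in Ctrl, so all 3 rCNT samples lay below all Ctrl samples. It fell by 0.70 ± 0.16 on the log2 scale (limma adjusted p = 0.00298), and with only rCNT and Ctrl in the fit it did not pass (-0.73, adjusted p = 0.102). This spot also had a dye effect, with Cy5 samples 0.30 log2 units above Cy3 samples (limma adjusted p = 0.013). Without a dye term in the fit its change after rCNT was -0.59 (limma adjusted p = 0.0499). A second spot annotated to the same transcript was at 9.23, 7.92 and 8.56 after rCNT and 7.55, 7.29 and 7.69 in Ctrl. That spot rose by 0.95 ± 0.27 (limma adjusted p = 0.0171 over 25140 spots). The dimmest spot, annotated to another transcript record of the gene, did not pass (0.08 ± 0.13, adjusted p = 0.718).

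The spots also disagreed between rCNT and tCNT: against tCNT, the second spot was higher by 0.99 ± 0.27 after rCNT (limma adjusted p = 0.0252) and the brightest spot was at -0.46 ± 0.15 (adjusted p = 0.0652). With the mean of the 3 spots in place of the brightest, the change after rCNT was 0.11 and did not pass. No direction is therefore given for the Itgam transcript. In the other 5 materials the brightest spot stayed between 13.62 and 14.68, overlapping Ctrl in each.

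**Figure D2:**
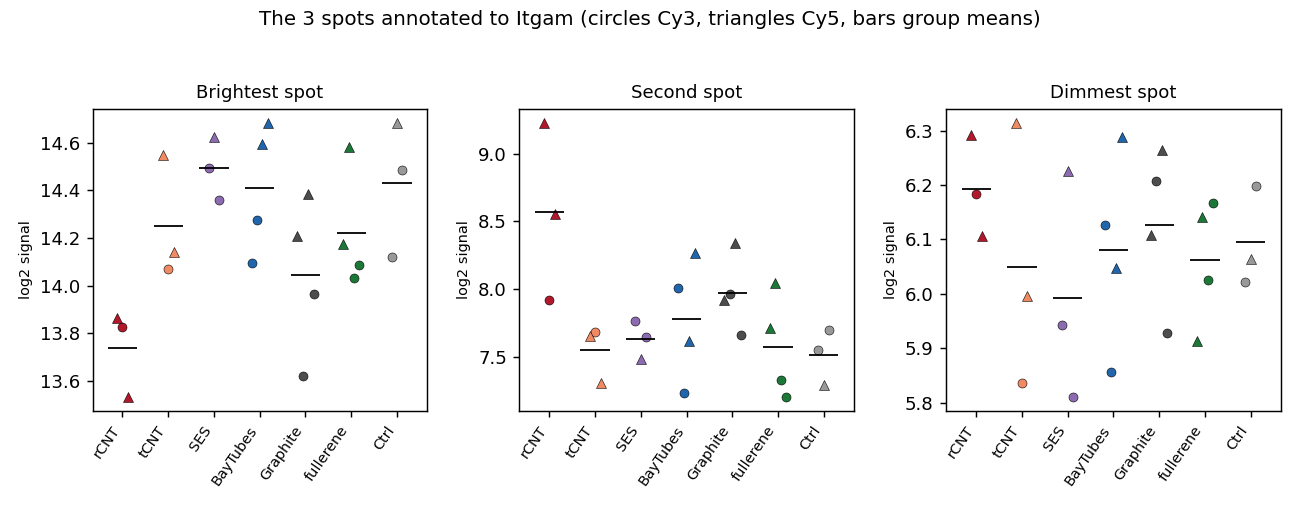
Log2 signal (vertical axes) of the 3 Itgam spots in all 24 samples, by group, with circles for Cy3, triangles for Cy5 and bars for group means. The 3 rCNT samples are the lowest group on the brightest spot (13.53 to 13.86) and the highest on the second spot (7.92 to 9.23).

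Adgre1, a surface protein of mature macrophages, was at 10.37, 10.48 and 11.10 in rCNT samples, against 9.46, 9.51 and 9.55 in Ctrl samples. It was at 9.86, 10.07 and 9.91 after tCNT, 9.74, 9.51 and 9.55 after SES, 10.22, 9.34, 9.91 and 10.33 after BayTubes, 10.28, 9.67, 10.23 and 9.61 after Graphite, and 10.87, 10.41, 9.81 and 9.61 after fullerene. The Ctrl samples were tight (SD 0.05) and rCNT lay well above them, while fullerene 21 exceeded 2 of the 3 rCNT samples. The change after rCNT was 0.99 ± 0.26 (limma adjusted p = 0.00914), and the gene's second spot changed by 0.90 ± 0.28 (adjusted p = 0.0271). The other 5 materials had log2 changes of 0.05 to 0.57 and did not pass. A Cy5 excess of 0.32 log2 units (adjusted p = 0.089) was measured for this gene.

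Fcgr1, the high-affinity receptor for IgG, was at 8.80, 8.20 and 8.65 after rCNT, against 7.36, 7.32 and 7.40 in Ctrl. Its values were 7.43, 7.84 and 7.44 after tCNT, 7.12, 7.58 and 7.87 after SES, 8.12, 7.25, 7.30 and 7.30 after BayTubes, 7.75, 7.24, 8.85 and 7.55 after Graphite, and 7.96, 7.48, 7.72 and 7.38 after fullerene. The rCNT samples were all above Ctrl, and Graphite 15 was above the highest rCNT sample. Fcgr1 rose by 1.12 ± 0.33 after rCNT (limma adjusted p = 0.0179). The call was lost when rCNT 4, rCNT 6 or Ctrl 2 was left out (log2 changes of 1.01, 1.03 and 1.02), with an adjusted p of up to 0.0839 over the 6 such refits. Over those refits the log2 change stayed between 1.01 and 1.44.

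Cd14, the co-receptor that hands lipopolysaccharide to the Tlr4 complex, gave the firmest change of the list. Its rCNT samples were at 12.60, 12.58 and 12.54, against 10.62, 10.38 and 10.38 in Ctrl, and a gap of 1.15 log2 units separated the rCNT mean from BayTubes, the next highest group. It rose by 2.00 ± 0.17 after rCNT (limma adjusted p = 2.33e-07). BayTubes samples were at 11.51, 11.41, 11.27 and 11.50, tCNT samples at 11.08, 11.18 and 11.30, Graphite samples at 10.89, 11.23, 10.96 and 10.98, fullerene samples at 11.46, 10.99, 10.68 and 10.74, and SES samples at 10.94, 10.73 and 11.08. Cd14 also rose after BayTubes (0.97 ± 0.14, limma adjusted p = 4.48e-04) and after tCNT (0.76 ± 0.17, adjusted p = 0.0357), where 2.16% and 0.684% of all genes were higher. In either direction 3.18% of genes passed after BayTubes and 0.708% after tCNT, with 0.0242% lower after tCNT. The tCNT call was lost in 5 of 6 refits that left out 1 tCNT or Ctrl sample. After Graphite, fullerene and SES the log2 differences were 0.54 ± 0.15, 0.48 ± 0.15 and 0.47 ± 0.16, and the adjusted p were 0.0719, 0.247 and 0.976, so they did not pass.

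Trem2, the lipid-sensing receptor of macrophages, was at 11.78, 11.27 and 11.65 in rCNT samples, against 9.03, 8.96 and 9.30 in Ctrl samples. It was at 10.38, 11.10 and 10.10 after tCNT, 9.66, 9.70 and 9.85 after SES, 11.47, 9.52, 9.82 and 10.44 after BayTubes, 10.26, 9.74, 10.11 and 9.80 after Graphite, and 11.13, 10.92, 9.60 and 9.35 after fullerene. The rCNT mean was 1.04 above tCNT, the next group, without overlap, although BayTubes 17 reached the rCNT range and the SD within BayTubes and fullerene was 0.86 and 0.90 (n = 4 each). Trem2 rose by 2.26 ± 0.45 after rCNT (limma adjusted p = 0.00122), a 4.80-fold change with a 95% confidence interval of 1.32 to 3.21 on the log2 scale. The changes after tCNT (1.24 ± 0.45), BayTubes (1.11 ± 0.37), fullerene (1.09 ± 0.42), Graphite (0.81 ± 0.40) and SES (0.48 ± 0.44) did not pass, at adjusted p of 0.319, 0.13, 0.313, 0.255 and 0.976. In fullerene lungs the 2 Cy5 samples (21 and 22) were the 2 highest. Fitting only the 2 groups compared, the tCNT change was 1.61 and passed at 0.0342.

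Apoe, a carrier of cholesterol and other lipids, was at 14.87, 14.92 and 14.71 after rCNT, against 15.36, 15.13 and 15.22 in Ctrl, so the rCNT samples lay below Ctrl without overlap. The log2 difference was -0.46 ± 0.18 (limma adjusted p = 0.0702), and it did not pass. After each of the other 5 materials its mean was also below that of Ctrl, with log2 differences of -0.15 to -0.27 that did not pass. There were 10 spots annotated to Apoe, and all 10 were lower after rCNT (log2 changes of -0.38 to -1.13), of which 1 passed over all spots (-0.56 ± 0.20, limma adjusted p = 0.0498). With the mean of the 10 spots the change was -0.50 and passed at 0.048. That mean includes the spot at -1.13, whose SE was 0.52 and which did not pass on its own (limma adjusted p = 0.129).

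**Figure D3:**
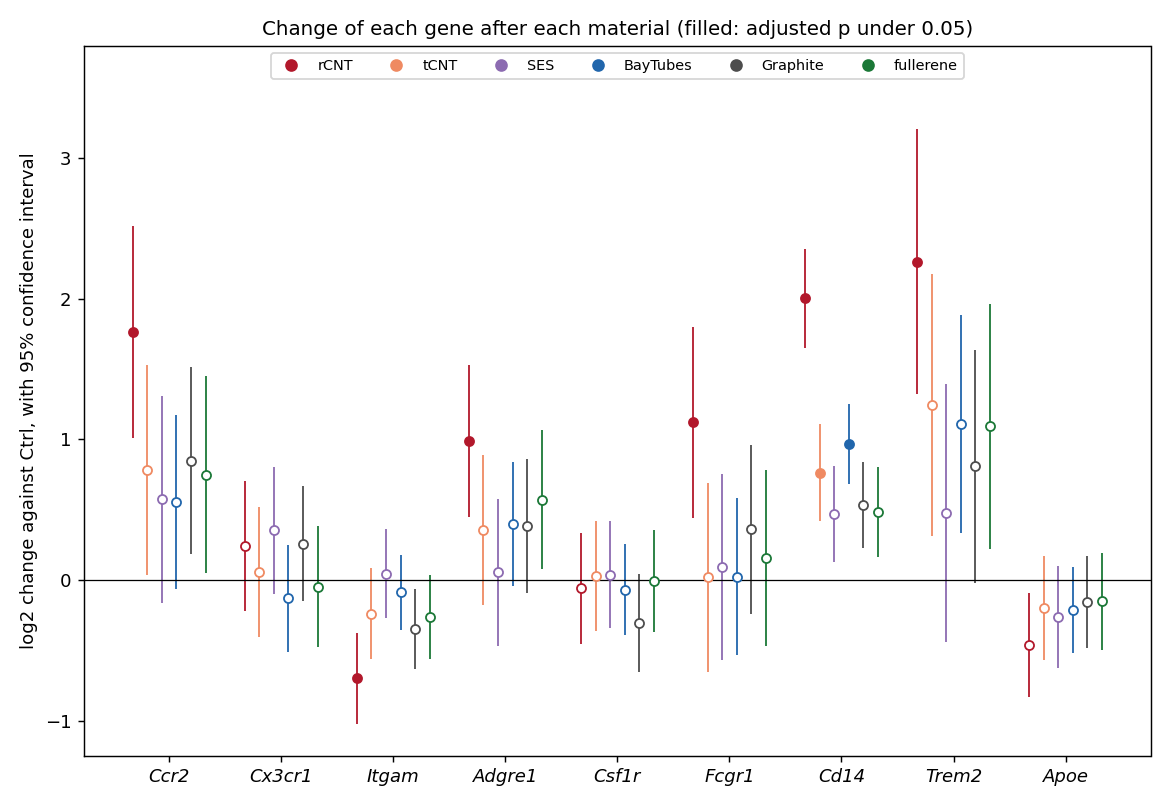
Log2 change against Ctrl (vertical axis) of each of the 9 genes (horizontal axis) after each of the 6 materials, with 95% confidence intervals from the limma fit, filled points having an adjusted p under 0.05. The rCNT points are filled for Ccr2, Itgam, Adgre1, Fcgr1, Cd14 and Trem2, and those of BayTubes and tCNT for Cd14 alone.

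Trem2 and Cd14 separated all exposed lungs from the controls. In Trem2 and Cd14, each of the 21 exposed samples lay above all 3 Ctrl samples, a pattern shared by 1.1% of all genes tested. The margin was narrow in places: the lowest exposed Trem2 value was 9.35 (fullerene 24), against a highest Ctrl value of 9.30, and for Cd14 these were 10.68 (fullerene 23) and 10.62. Taken material by material, the rCNT samples lay above all Ctrl samples in 6 of 9 genes (18.9% of all genes) and below them in 2 (15.9%). The tCNT samples did so in 6 (8.94%) and 0 (7.45%), SES in 4 (7.25%) and 0 (5.97%), BayTubes in 2 (6.54%) and 0 (5.7%), Graphite in 3 (9.41%) and 0 (4.53%), and fullerene in 4 (11.2%) and 0 (5.44%). For tCNT, the 6 genes were Ccr2, Cx3cr1, Adgre1, Trem2, Cd14 and Fcgr1. These counts share their Ctrl samples.

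By group mean, rCNT ranked highest in 5 of 9 genes and Ctrl lowest in 5 of 9. Only in Trem2 and Cd14 did rCNT not overlap the group next below it, and in the same 2 genes SES, the lowest of the 6 materials, did not overlap Ctrl. All other neighbours in the order of the 7 groups overlapped. The shares of all genes with these ranks or gaps were not counted, so no trait particular to the listed genes is read from them. After SES, Graphite and fullerene 0 of the 9 genes passed (limma), while 0%, 1.13% and 0.26% of all genes passed. At an unadjusted p under 0.05 there were 1, 3 and 4 of the 9, beside 4.52%, 20.5% and 12.1% of all genes. An F test for any difference among the 5 materials other than rCNT also gave 0 of 9 (limma; 0.291% of all genes passed), with Cd14 the 1 listed gene at an unadjusted p under 0.05, beside 8.52% of all genes.

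A direct comparison of rCNT with tCNT asked whether the listed genes told these materials apart. Cd14 was higher after rCNT by 1.24 ± 0.16 on the log2 scale (2.36-fold, limma adjusted p = 1.30e-04), and Fcgr1 by 1.10 ± 0.32 (2.15-fold, adjusted p = 0.0352), while 5.71% of all genes were higher, 3.14% lower and 8.84% either. The Fcgr1 call was lost in 4 of 6 refits that left out 1 sample. Ccr2 (0.98 ± 0.35), Trem2 (1.02 ± 0.44), Adgre1 (0.64 ± 0.25) and the brightest Itgam spot (-0.46 ± 0.15) did not pass, at adjusted p of 0.0918, 0.161, 0.126 and 0.0652. For Ccr2 the 95% confidence interval of the difference was 0.24 to 1.72, so this comparison does not show that the materials act alike on Ccr2. Against the mean of the other 5 materials, 5 genes were higher after rCNT and the brightest Itgam spot was lower (13.8% and 12.4% of all genes, 26.2% either). The 5 higher genes, each read from its brightest spot, were Cd14 at 1.36 ± 0.12, Trem2 at 1.32 ± 0.33, Ccr2 at 1.06 ± 0.27, Fcgr1 at 0.99 ± 0.24 and Adgre1 at 0.64 ± 0.19. With the mean of all spots of a gene, 5 of the 9 genes passed in that comparison. The share of all genes that passed with that setting is not given here, so the count stands alone.

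Most ligand genes of the listed receptors rose after rCNT. Of 7 ligand genes, 5 rose and 1 fell after rCNT, with a median log2 change of 3.41, beside 12.4% of all genes higher and 9.41% lower. The Ccr2 ligand Ccl7 was at 11.50 ± 0.56 in rCNT and 6.28 ± 0.14 in Ctrl (log2 signal, SD, n = 3 each). Csf1, a ligand of Csf1r, rose by 0.48 ± 0.12 (limma adjusted p = 0.0066), and Il34, its other ligand, did not pass (0.07 ± 0.16, adjusted p = 0.815). Cx3cl1, the ligand of Cx3cr1, fell by 0.66 ± 0.12 (adjusted p = 3.85e-04), to 11.51 ± 0.11 in rCNT samples, against 12.20 ± 0.07 in Ctrl samples.

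After BayTubes and Graphite, Ccr2 ligands including Ccl2 passed while Ccr2 did not. Ccl8 was counted as a Ccr2 ligand because the list used here places it there, and whether it acts through Ccr2 in these lungs was not tested. After BayTubes, Ccl2 rose by 2.07 ± 0.31, Ccl8 by 2.03 ± 0.37, Ccl7 by 1.49 ± 0.27 and Ccl12 by 1.36 ± 0.25, beside a Ccr2 change of 0.55 ± 0.30 that did not pass and 2.16% of all genes higher. After Graphite, Ccl2 (1.55 ± 0.34) and Ccl8 (1.72 ± 0.40) rose, and after tCNT only Ccl8 did (1.98 ± 0.45) among the 7 ligands, where 0.545% and 0.684% of all genes were higher. None of the 7 passed after SES or fullerene (limma), with 2 and 4 at an unadjusted p under 0.05, beside 4.52% and 12.1% of all genes. Cx3cl1 and Csf1 passed after rCNT and after none of the other 5 materials, and in rCNT against tCNT both passed too, Csf1 higher and Cx3cl1 lower.

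**Figure D4:**
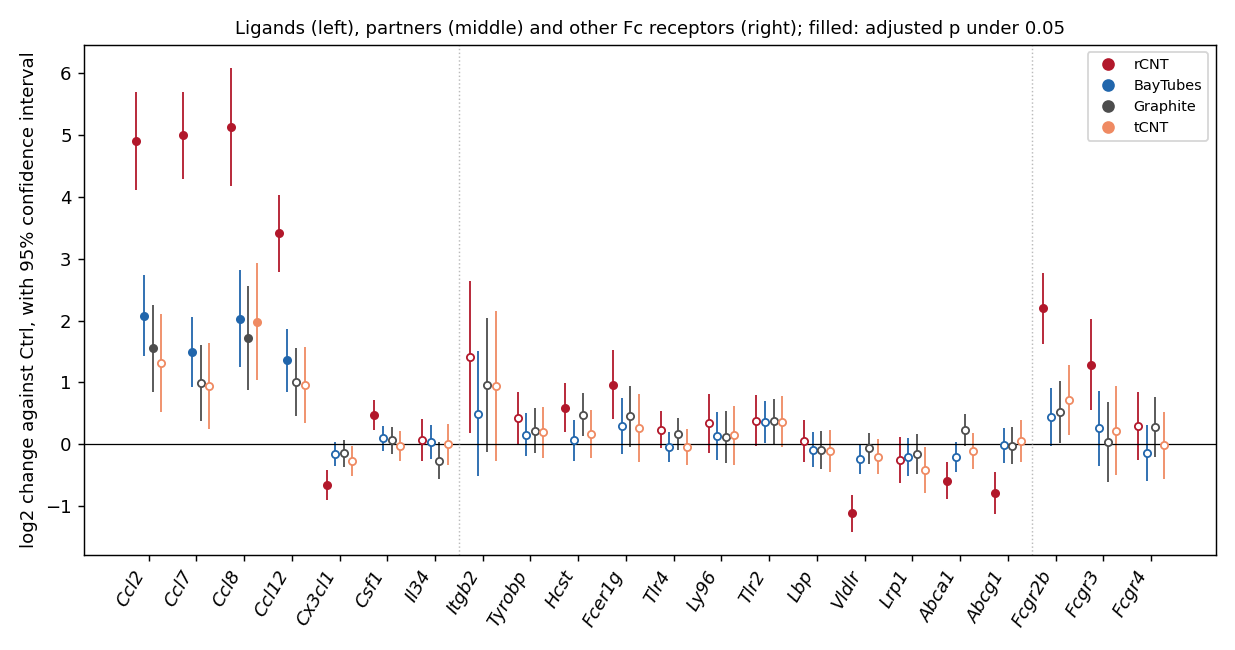
Log2 change against Ctrl (vertical axis) of ligands, signalling partners and other Fc receptors (horizontal axis) after rCNT, BayTubes, Graphite and tCNT, with 95% confidence intervals from the limma fit and filled points at an adjusted p under 0.05. The genes listed as Ccr2 ligands (Ccl8 included) lie between 3.41 and 5.13 after rCNT, and Cx3cl1, Vldlr, Abca1 and Abcg1 lie below 0 after rCNT with filled points.

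Of 12 measured partners, 2 rose and 3 fell after rCNT, with a median of 0.29, and the 2 are near the 12.4% of all genes that rose (9.41% fell). Fcer1g, the signalling chain that Fcgr1 needs at the surface, rose by 0.96 ± 0.27 (limma adjusted p = 0.013), and Hcst (DAP10), an adaptor that Trem2 can use, by 0.59 ± 0.19 (adjusted p = 0.03). Tyrobp (DAP12), the main Trem2 adaptor, was at 0.42 ± 0.20 (adjusted p = 0.138). The 3 that fell belong to lipid export and uptake: the lipoprotein receptor Vldlr by 1.12 ± 0.14, the transporter Abcg1 by 0.79 ± 0.16 and Abca1, which loads cholesterol onto apolipoproteins such as Apoe, by 0.59 ± 0.14. Itgb2, the beta chain that pairs with Itgam, was at 1.41 ± 0.59 (adjusted p = 0.0921). The Cd14 partners Tlr4 (0.24 ± 0.14), Ly96 (0.34 ± 0.23), Tlr2 (0.38 ± 0.20) and Lbp (0.06 ± 0.16) and the Apoe receptor Lrp1 (-0.25 ± 0.18) did not pass.

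Among the other Fc receptors, the inhibitory Fcgr2b rose by 2.20 ± 0.27 (limma adjusted p = 1.5e-05) and the activating Fcgr3 by 1.28 ± 0.35 (adjusted p = 0.0125), and Fcgr4 did not pass (0.30 ± 0.26). Among 9 genes of classical monocytes, 5 rose after rCNT and none fell (median 1.00), beside 12.4% and 9.41% of all genes. Those that rose include Vcan (1.72 ± 0.24), S100a4 (1.83 ± 0.26) and Plac8 (1.09 ± 0.29). Ly6c1, the near copy of Ly6c2 that is also abundant in lung endothelium, was at 0.08 ± 0.17 (adjusted p = 0.795). Of 9 genes of patrolling monocytes, 1 rose (Pglyrp1, 1.54 ± 0.26) and none fell, with a median of 0.00, so the share that rose was near that of all genes. Pglyrp1 is also a neutrophil granule gene.

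Genes of lipid-handling recruited macrophages rose in 6 of 12 after rCNT (median 0.77, none lower; 12.4% of all genes rose and 9.41% fell), with Mmp12, Ctsk and Lgals3 the 3 of lowest p. Mmp12 averaged 5.77 in Ctrl, near the 40th percentile of the samples (between 5.69 and 5.75), which makes the extent of its rise uncertain. Ctsk, a collagen-cutting protease, rose by 1.98 ± 0.30 after rCNT, 1.77 ± 0.24 after BayTubes and 1.65 ± 0.29 after tCNT, where 12.4%, 2.16% and 0.684% of all genes were higher. Lgals3 rose by 1.34 ± 0.21 after rCNT and 0.65 ± 0.17 after BayTubes. Genes of interstitial macrophages rose in 6 of 11 after rCNT and fell in 1 (median 1.08), with 8 of the 11 log2 changes above 0. The 1 that fell was Mertk, named for this reason, and 1 of 11 is near the share of all genes. Those that rose include C1qc at 1.65 ± 0.27, C1qa at 1.48 ± 0.25 and the folate receptor Folr2 at 1.11 ± 0.17. For tCNT, SES, BayTubes, Graphite and fullerene, no gene of the classical, patrolling or interstitial lists or of the other Fc receptors passed against Ctrl (limma), with 6, 0, 7, 5 and 3 of their 32 tested genes at an unadjusted p under 0.05. Among all genes 9.3%, 4.52%, 13.9%, 20.5% and 12.1% reached that p. The counts lay below that share for SES, Graphite and fullerene and above it for tCNT and BayTubes, and these differences were not tested.

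Several lists of markers of other cells also held genes that changed after rCNT. Their counts stand beside 12.4% of all genes higher and 9.41% lower after rCNT. After rCNT, 2 of 6 pan-leukocyte genes rose (Cd52 1.16 ± 0.20, Cd53 1.03 ± 0.32) and the mean log2 signal of the 6 was 11.94 to 12.61, against 11.79 to 11.94 in Ctrl. Eosinophil markers rose in 4 of 5 tested (mean signal of the 6 with a spot, Epx included, 8.35 to 9.17 in rCNT, 7.72 to 7.89 in Ctrl), dendritic cell markers in 3 of 8 (8.02 to 8.63, against 7.98 to 8.12) and alveolar macrophage markers in 4 of 10 (11.58 to 11.74, against 11.27 to 11.33). The alveolar macrophage list was split, with 5 of its 10 log2 changes above 0 and a median of -0.03. Neutrophil markers rose in 2 of 8 and fell in 1 (9.84 to 10.45, against 9.62 to 9.72), the 1 being near the share of all genes. T cell markers rose in 2 of 5 and those of natural killer cells (6) and B cells (4) in none (limma), with 0 of either at an unadjusted p under 0.05, beside 34.7% of all genes. Epx of the eosinophil list, named for this reason, was below the 40th percentile in all samples. Endothelial markers fell in 5 of 6 (12.64 to 12.88 in rCNT, 13.46 to 13.57 in Ctrl) and epithelial markers in 1 of 7, which is near the share of all genes. The part of these cell markers in the changes of the listed genes was not tested.

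Samples of BayTubes, fullerene and Graphite differed widely in how many listed genes lay above the group mean. The highest and lowest of each are given, and in the other groups the counts were between 2 and 6 of 9. The matching share of all genes was not counted, so nothing particular to the listed genes is read from the counts. BayTubes 17 lay above its group mean in 8 of 9 genes and BayTubes 18 in 0 of 9. Fullerene 21 lay above its mean in 8 of 9 and fullerene 24 in 0 of 9, while Graphite 15 was above in 7 of 9 and Graphite 16 in 0 of 9. These deviations were not corrected for dye. Averaged over the genes, they were 0.43 and 0.21 in the Cy5 fullerene samples and -0.27 and -0.36 in the Cy3 ones. In Graphite they were 0.10 and 0.36 in Cy5 and -0.31 and -0.16 in Cy3. BayTubes 17 and 18 were both Cy3. The part of dye in these deviations was not tested. In Graphite 15 the mean neutrophil marker signal was 11.62, against 9.40 to 9.60 in the other Graphite samples, and its part in the Ccr2 and Fcgr1 values of that sample was not tested. Without Graphite 15, the Fcgr1 change after Graphite was 0.09, against 0.36 with it, and neither passed.

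Samples sharing an array resembled each other, with correlations of their residuals over genes of 0.40 to 0.87 across the 12 arrays, highest for rCNT 4 and Graphite 16. With that array left out, Fcgr1 after rCNT was at 1.02 and no longer passed (limma adjusted p = 0.0543), while Trem2, Cd14, Ccr2, Adgre1 and Itgam kept their calls. With array as a fixed term, of the 6 genes only Cd14 passed, and the other log2 changes were 1.46 for Ccr2, -0.36 for Itgam, 0.83 for Adgre1, 2.08 for Trem2 and 1.07 for Fcgr1. Ctrl samples lay on slides 1 and 2 only. Within slide 1 (rCNT 4 and Ctrl 2, lone samples assumed to vary like the others) and slide 2 (rCNT 6 and Ctrl 1 and 3), the log2 changes were 2.05 and 1.39 for Ccr2, 2.59 and 1.91 for Trem2, 2.24 and 2.43 for Cd14, 0.79 and 0.97 for Adgre1, 1.62 and 0.74 for Fcgr1 and -0.78 and -1.44 for Itgam, all of the same sign as over all slides. Both fits held 1 rCNT sample, so only the sizes of change are given and no call is read from them. On slide 2, rCNT 6 was in Cy5 and both Ctrl samples in Cy3. Only Graphite had samples in both dyes there, so the dye correction of that fit rested on Graphite 13 and 14. Before that correction the slide 2 means of rCNT and Ctrl were 13.53 and 14.30 for Itgam and 10.72 and 8.67 for Ccr2.

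The genes whose pattern over the 7 group means was nearest to each listed gene were found by the root mean square difference of centred log2 means, over 16519 genes. For Trem2 these were Kif20a (0.127), Melk (0.134) and E2f8 (0.139), against a root mean square of 0.703 for the Trem2 pattern itself. For Ccr2 they were Mad2l1 (0.117), Neil3 (0.125) and Cenpw (0.130), and for Cd14 the metallothionein Mt2 (0.0613), Cdkn3 (0.0691) and Spc24 (0.0717). Kif20a, Melk, Mad2l1, Cenpw, Cdkn3 and Spc24 are genes of cell division. For Fcgr1 they were Il31ra (0.0443), Cyp1b1 (0.0539) and Gsr (0.0550), and for Adgre1 Dbf4 (0.0670), 4930579G24Rik (0.0769) and the macrophage mannose receptor Mrc1 (0.0800). For Itgam's brightest spot they were Tacr2 (0.0301), Pdcd4 (0.0421) and Krt222 (0.0433). Csf1r, Apoe and Cx3cr1 had nearly flat patterns (root mean squares of 0.147, 0.110 and 0.165), and their nearest genes were Sirpa, Peg3 and Exog for Csf1r, Smg6, Phf21a and Dhx30 for Apoe, and Kcnj1, Olfr339 and Hus1b for Cx3cr1.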

How the data were processed

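The deposited table holds the authors' log2 signals, 1 per spot (62976) and sample, from 12 two-colour arrays on 3 slides with a sample in each dye. Agilent Feature Extraction and limma are named, per the submitters' processing notes, without versions. Sorted values of any 2 samples differed by at most 0.0856, so no further normalization was applied. Signals have no count depth, and precision rests on how many samples there are. The platform annotation named 31465 spots, updated through RefSeq (GRCm38.p6). A gene was its spot of highest mean, kept if 3 or more samples had it above their 40th percentile.

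Here limma 3.58.1 (R 4.3.3, statmod 1.5.0) fitted group and dye with array as a random block (correlation 0.399). Tests were 2-sided with Benjamini-Hochberg adjustment over 16519 genes. Tested on simulated data, 83.6% of 2-fold changes were found for rCNT against Ctrl. There 67 genes were changed 1.5-fold, 67 2-fold and 66 4-fold, and each gene had the same spread in all samples. In the real data 3600 genes passed after rCNT, so that share is not the recovery of the reported comparison.

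The members and lists were chosen with earlier results of these data known. All listed genes, every ligand and partner, the 3 genes of smallest p in each list after rCNT and the 3 nearest patterns could be named. Slide-wise fits took the array correlation from all samples. Alternatives changed dye, array, filter, normalization, spot, variance prior, samples fitted and slide, and left out each sample. Leaving out 1 array, and fitting every spot, were added after seeing the data. No label says whether a group's pools came from separate experiments, so p-values measure the spread between these pools.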

Additional observations from a re-analysis of the deposited data

Results flagged for a closer look

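Fcgr1 in BayTubes 17 was at 8.12 on the log2 signal scale, while the other BayTubes samples lay between 7.25 and 7.30. The gap to the nearest sample was 0.947 of the range of the group, and the value was picked out for lying so far from the rest. Of 27 groups of 4 samples examined (9 genes in 3 materials) this was the 1 that did so, and chance picks out about 1 in 20 groups. Without BayTubes 17, the log2 change of Fcgr1 after BayTubes was -0.20, against 0.02 with it, and neither passed (limma).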

How the results depend on the processing

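No paired analysis was possible because the groups share no replicate numbers, so samples were matched by array alone, as a random block or a fixed term. With array as a fixed term, which leaves fewer degrees of freedom, the listed genes called fell to 1 after rCNT (6 in the reported fit), 0 after tCNT (1), 0 in rCNT against tCNT (2) and 1 for rCNT against the mean of the other 5 materials (6). The counts over all genes under it were 1074 after rCNT (reported 3600), 0 after tCNT (117), 61 after BayTubes (526), 0 after Graphite (187), 1 after fullerene (43), 12 in rCNT against tCNT (1461), 936 for rCNT against the mean of the other 5 (4334) and 3 among those 5 (48). With only the groups compared in the fit, all-gene counts were 1017 after rCNT, 51 after tCNT, 2 after SES (0), 300 after BayTubes, 0 after Graphite, 13 after fullerene, 55 in rCNT against tCNT and 28 among the other 5, and 1 listed gene passed in rCNT against tCNT. A slide term gave 1 listed gene (Cd14) and 544 genes in all after Graphite, and 24 genes among the other 5 materials, and a fit with no dye term gave 29 there. Without the array of rCNT 4 and Graphite 16, 96 genes passed after Graphite and 1 listed gene in rCNT against tCNT. Leaving out each sample gave 5 to 6 listed and 2468 to 3633 genes after rCNT, 0 to 1 and 0 to 310 after tCNT, 0 to 0 and 0 to 0 after SES, 1 to 1 and 246 to 533 after BayTubes, 0 to 0 and 2 to 416 after Graphite, 0 to 0 and 13 to 31 after fullerene, 1 to 4 and 471 to 2131 in rCNT against tCNT, 4 to 6 and 3097 to 5056 for rCNT against the mean of the other 5, and 0 to 0 and 12 to 56 among those 5. The cause of these shifts was not tested. The Itgam change after rCNT turned to 0.11 with the mean of its spots, as its spots disagree, and was the 1 sign change in 168 refits of the 10 called values, of which 132 passed the test and 36 did not. Among 53 uncalled values the sign changed in 61 of 912 refits. Cd14 after rCNT kept its call in all 9 other settings (1.68 to 2.14) and Cd14 after BayTubes in 9 (0.96 to 1.03), apart from the fits within single slides. Within slide 1, which held 1 Ctrl sample, the log2 change of Cd14 was 0.86 after BayTubes and 0.65 after tCNT. Within slide 2, which held 1 BayTubes sample, it was 1.44 after BayTubes. No call is read from these fits.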
